A study of Homo sapiens with 6 samples.

Results

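The genes described here are the matrix metalloproteinases MMP1, MMP2, MMP14 and MMP15, the tissue inhibitors of metalloproteinases TIMP1, TIMP2 and TIMP3, and the plasminogen activator genes PLAU and PLAT with PLAUR, the receptor of the PLAU product. They are 10 of the 36884 genes in the deposited count table, taken by symbol, and each symbol has 1 row. RNA was sequenced from RPE1, a human retinal pigment epithelial line that does not form tumours, after both Hippo pathway kinases LATS1 and LATS2 had been inactivated in it by CRISPR-Cas9 editing. All libraries carry that editing, and unedited cells are not analysed here. For 48 h before collection, 3 cultures received control siRNA and 3 received siRNA against MK5, the protein kinase encoded by MAPKAPK5, by lipid transfection. Whether the edited line is 1 clone, and how many siRNA sequences were used, is not stated in the labels. The submitters call the libraries biological replicates; if some share a culture, the p-values measure only the spread between libraries.

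Matrix metalloproteinases are zinc-dependent enzymes that cut collagens and other proteins of the extracellular matrix. They are made as inactive precursors, and MMP14, which sits in the plasma membrane, activates the secreted precursor of MMP2 in a complex that includes TIMP2. TIMPs bind and block the active enzymes. PLAU (urokinase) and PLAT (tissue plasminogen activator) are serine proteases that turn plasminogen into plasmin, and PLAUR holds PLAU at the cell surface. In the eye, TIMP3 is a product of the retinal pigment epithelium that is deposited in the membrane beneath it.

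The upstream sequences of 4 genes are shown because their transcripts went in different directions: PLAU fell, MMP14 and MMP15 rose, and PLAUR did not pass the test with all libraries. Each is the 250 bases before an annotated start, 5′ to 3′ on the gene's strand, from RefSeq (GRCh38.p14). That build differs from the GRCh37 named in the submitters' processing notes, so the coordinates belong to the sequences and not to the counts. PLAU has 2 annotated starts in that table and the downstream one is shown, at chr10:73910882-73911131 (+). MMP14 lies at chr14:22836335-22836584 (+), MMP15 at chr16:58025504-58025753 (+) and PLAUR at chr19:43670170-43670419 (−). Capitals mark matches, on either strand, to the AP-1 motif TGANTCA or to the GC box GGGCGG, the word bound by SP and KLF factors; matches to the TEAD motif GGAATG would also be in capitals.
PLAU: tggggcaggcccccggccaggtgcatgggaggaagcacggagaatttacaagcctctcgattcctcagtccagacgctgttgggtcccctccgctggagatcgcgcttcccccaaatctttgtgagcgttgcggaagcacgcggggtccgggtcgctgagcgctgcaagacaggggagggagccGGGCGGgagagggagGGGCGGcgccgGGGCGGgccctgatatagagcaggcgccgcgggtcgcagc
MMP14: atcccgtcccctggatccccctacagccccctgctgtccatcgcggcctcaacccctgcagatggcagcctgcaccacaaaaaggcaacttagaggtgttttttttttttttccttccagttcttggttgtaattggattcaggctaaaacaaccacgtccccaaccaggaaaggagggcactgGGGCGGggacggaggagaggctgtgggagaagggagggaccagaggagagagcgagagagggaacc
MMP15: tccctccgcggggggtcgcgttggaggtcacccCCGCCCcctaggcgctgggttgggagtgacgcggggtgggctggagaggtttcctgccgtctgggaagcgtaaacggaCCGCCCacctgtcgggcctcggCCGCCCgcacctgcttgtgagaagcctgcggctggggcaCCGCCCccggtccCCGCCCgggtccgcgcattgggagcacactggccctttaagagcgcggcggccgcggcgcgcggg
PLAUR: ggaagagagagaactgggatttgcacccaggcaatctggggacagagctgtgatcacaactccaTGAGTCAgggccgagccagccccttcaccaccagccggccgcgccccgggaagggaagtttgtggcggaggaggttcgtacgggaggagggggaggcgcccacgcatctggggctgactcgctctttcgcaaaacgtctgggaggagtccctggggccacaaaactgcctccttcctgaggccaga

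Of the 10 genes, 6 had an entry in the promoter table (MMP14, MMP15, TIMP1, TIMP3, PLAU and PLAUR). PLAUR held the only AP-1 match in these 7 windows, with its first base 186 bases before the start, and 6.59% of all 34943 upstream windows held one. None of the 7 windows held the TEAD motif, which 11.9% of all windows did. The GC box was in 42.5% of all windows. It occurred 5 times upstream of MMP15 and TIMP3, 3 times upstream of the downstream PLAU start, 2 times upstream of TIMP1 and 1 time upstream of MMP14, and it was absent from the PLAUR window and that of the other PLAU start. No motif overlapped another in the 4 windows shown. These are matches of letters in a short window, and no binding was measured.

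The libraries held between 27188074 and 28236773 counts. MAPKAPK5, the siRNA's target, stood at 29.05 to 35.6 CPM in the control libraries and 14.1 to 17.4 CPM in the MK5 siRNA libraries, and its log2 fold change was −1.01 ± 0.14 (edgeR adjusted p = 0.00169). Levels in CPM are counts relative to the TMM-scaled library total. Replicate 1 stood apart from replicates 2 and 3, mainly in the controls: control replicate 1 lay at 49.9 on the second principal component and control replicates 2 and 3 at −25.5 and −26.7. Results are therefore given also without replicate 1 of both groups. Of the markers of this cell type, KRT8, KRT18, RDH11, MITF, OTX2, PAX6 and CDH2 were counted in all libraries. RPE65, RLBP1 and TYR, genes of the mature pigment epithelium, had at most 2 counts in any. BEST1, at 11 to 26 counts per library, did not pass, and PMEL, at 13 to 65 counts, fell (−1.89 ± 0.27, edgeR adjusted p = 0.00189). The 12 markers of this type summed to 1376 to 1531 CPM in controls and 854 to 1138 CPM after MK5 siRNA, and of 9 tested none rose and 5 fell. The largest parts of the control sum were KRT8 and CDH2, at means of 642 and 409 CPM. Without replicate 1 in both groups 1 rose and 6 fell. PAX6 gave 0.61 ± 0.21 (edgeR adjusted p = 0.052) and passed upward without replicate 1 in both groups (0.97, edgeR adjusted p = 3.79e-10). OTX2 did not pass (0.10 ± 0.11, edgeR adjusted p = 0.46). For fibroblasts COL1A2, COL3A1, DCN and LUM had at most 7 counts in any library. Of the 4 tested fibroblast markers 1 rose and 1 fell. COL1A1 rose from a mean of 53.5 to 190 CPM (1.83 ± 0.35, edgeR adjusted p = 0.00605). THY1 fell from 352 to 77.9 CPM (−2.18 ± 0.21, edgeR adjusted p = 0.000475). PDGFRB, at 113 CPM in controls, did not pass with all libraries (−0.74 ± 0.34, edgeR adjusted p = 0.117), nor did PDGFRA, at 40 to 55 counts. PDGFRB passed downward with the replicate number as a block (−0.86, edgeR adjusted p = 0.0462) and without replicate 1 in both groups. For blood cells 7 of 8 markers had at most 10 counts, while CSF1R was tested and fell. Of 5 endothelial markers PECAM1 was at 0 in all libraries and 3 were tested. VWF, at 2 to 72 counts per library (−2.95 ± 0.85, edgeR adjusted p = 0.0269), and TEK, at 3 to 25 counts (−2.12 ± 0.42, edgeR adjusted p = 0.00637), fell. KDR, at 11 to 46 counts, did not pass with all libraries (−1.20 ± 0.43, edgeR adjusted p = 0.0556). KDR passed downward with the replicate number as a block (−1.22, edgeR adjusted p = 0.0168) and without replicate 1 in both groups (−1.32, edgeR adjusted p = 0.00135). VWF gave −1.77 without control replicate 1 and did not pass when any 1 of the MK5 siRNA libraries was left out (edgeR adjusted p from 0.0511 to 0.0922). The summed level of the fibroblast list was 412 to 578 CPM in controls and 250 to 479 CPM after MK5 siRNA, that of the leukocyte list 7.13 to 9.29 and 3.27 to 3.87 CPM, and that of the endothelial list 2.19 to 5.75 and 0.673 to 1.17 CPM. The part of other cells in the results below was not tested.

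MK5 siRNA shifted these genes in opposite directions: the 3 tested metalloproteinases rose and both plasminogen activators fell. Of the 10 genes, 8 passed the filter on low counts; of these 3 rose (MMP2, MMP14 and MMP15), 3 fell (PLAU, PLAT and TIMP2) and 2 did not pass (TIMP1 and PLAUR), by edgeR's quasi-likelihood test with Benjamini-Hochberg adjustment over all genes tested and a threshold of 0.05. Over all 13431 genes tested, 22.5% rose and 23.7% fell, or 46.2% in either direction, so that a changed gene is common in this comparison. Log2 fold changes compare MK5 siRNA with control siRNA and carry the standard error of that fit (n = 3 per group). The median over the 8 genes was 0.02, against 0.00031 over all genes tested. The libraries of the groups did not overlap in 6 of the 8 genes, and in 60.4% of all genes tested. In a bulk sample, fewer cells that make a transcript and less of it per cell cannot be told apart.

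**Figure D1:**
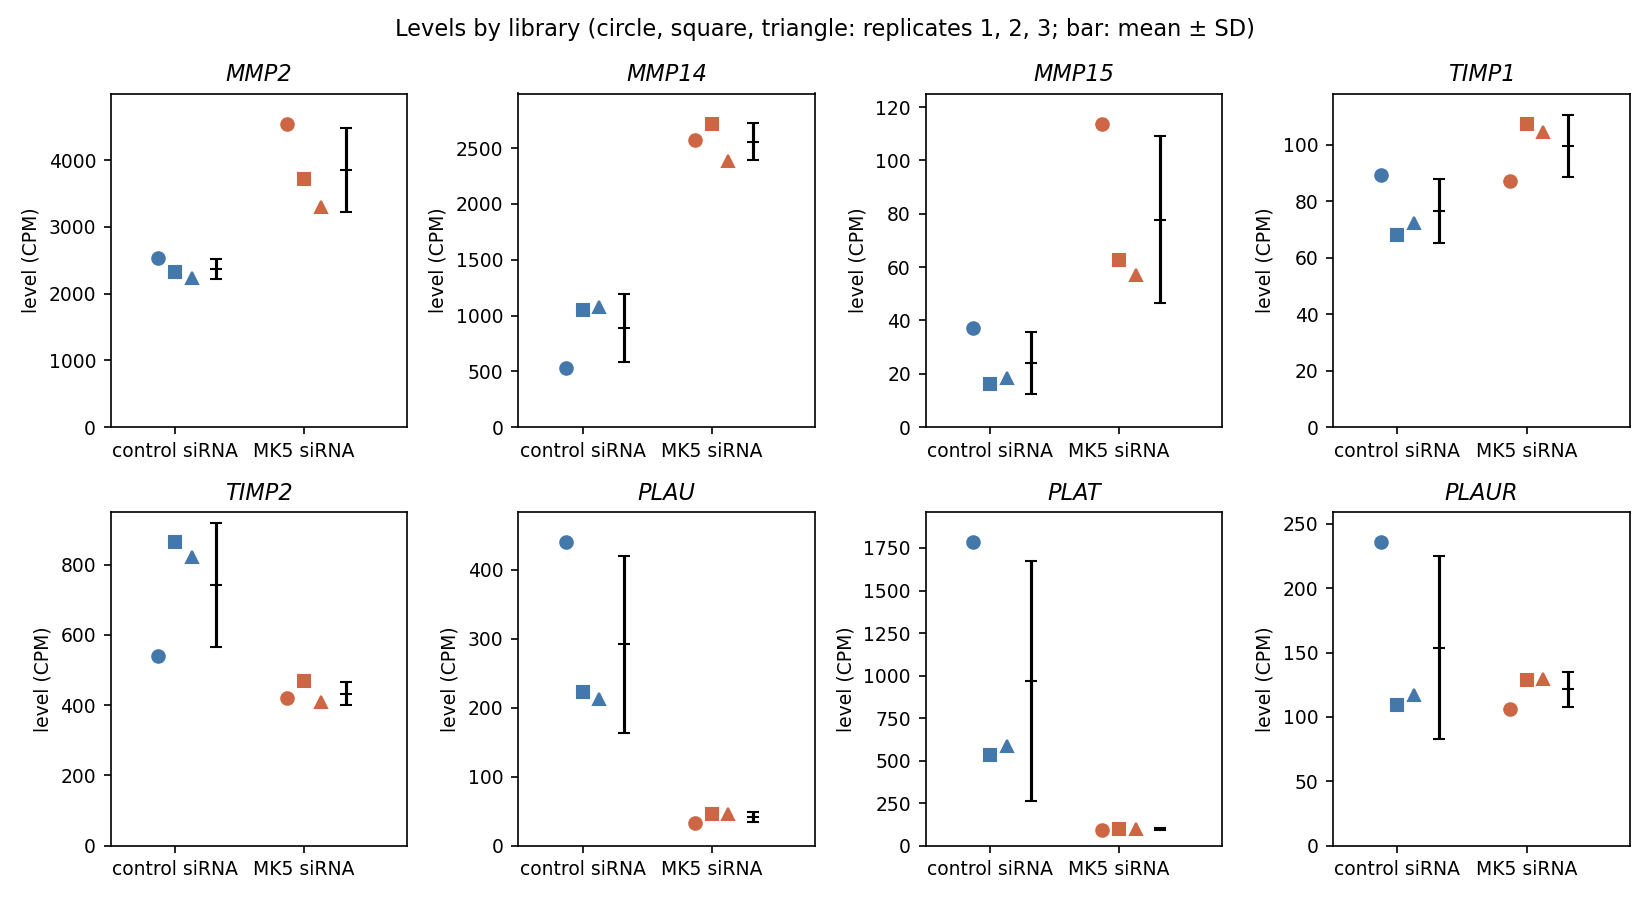
Level of each gene in every library, in CPM on linear axes that start at 0, for control siRNA (blue) and MK5 siRNA (orange); the black bars are mean ± SD over 3 libraries. PLAU, PLAT and TIMP2 lie lower, and MMP2, MMP14 and MMP15 higher, in all MK5 siRNA libraries than in all controls. Control replicate 1 (circle) is the lowest control in MMP14 and TIMP2 and the highest control in every other gene shown.

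MMP14 (ENSG00000157227), the membrane-anchored collagenase that activates MMP2, rose by 2.89-fold. It was at 534, 1048 and 1078 CPM in control replicates 1, 2 and 3, and at 2574, 2718 and 2385 CPM in MK5 siRNA replicates 1, 2 and 3. Control replicate 1 was the lowest library, and the lowest MK5 siRNA library was above the highest control. The mean went from 887 ± 306 to 2559 ± 167 CPM, and the log2 change was 1.53 ± 0.27 (edgeR adjusted p = 0.00397). Its absolute change was larger than that of 89.2% of the genes tested. The rise was 2.27, 1.37 and 1.15 in replicate pairs 1, 2 and 3 (differences of log2(CPM + 0.5)) and 1.27 in the fit without replicate 1.

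MMP15 (ENSG00000102996), a relative of MMP14 with the same kind of membrane anchor, rose by 3.24-fold from a much lower level. Control replicates 1, 2 and 3 had 37.2, 16.2 and 18.6 CPM, and MK5 siRNA replicates 1, 2 and 3 had 114, 62.6 and 57.1 CPM. Replicate 1 was the highest library within each group, and the groups did not overlap. The mean rose from 24.0 ± 11.5 to 77.8 ± 31.2 CPM (log2 fold change 1.70 ± 0.40, edgeR adjusted p = 0.0124), and the pairs gave 1.60, 1.92 and 1.59. With replicate 1 of both groups left out it was 1.79.

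MMP2 (ENSG00000087245), the secreted gelatinase that cuts denatured collagen and type IV collagen, was already abundant and rose by 1.63-fold. Its level was 2529.6, 2331 and 2235 CPM in the controls and 4543, 3722 and 3294 CPM after MK5 siRNA. All MK5 siRNA libraries were above all controls. The mean rose from 2365 ± 150.4 to 3853 ± 635 CPM (log2 fold change 0.70 ± 0.15, edgeR adjusted p = 0.00771), and the 3 pairs gave 0.84, 0.68 and 0.56. A smaller absolute change was found in 61.5% of the genes tested, so the rise of MMP2 was of ordinary size for this comparison.

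MMP1 (ENSG00000196611), the interstitial collagenase, was hardly counted in these cells. It had 1, 2 and 4 counts in the control libraries and 0, 1 and 2 in the MK5 siRNA libraries, below the filter, and no fold change is given. The summed counts were 7 and 3.

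Among the inhibitors TIMP2 fell, TIMP1 did not pass and TIMP3 had no count. TIMP2 (ENSG00000035862), which both inhibits metalloproteinases and takes part in the activation of MMP2, fell by 1.71-fold. It stood at 540.4, 863 and 822 CPM in the controls and at 419.8, 469 and 409.6 CPM after MK5 siRNA. Control replicate 1 was closest to the MK5 siRNA libraries, and the groups did not overlap. The group means were 742 ± 176 and 433 ± 31.8 CPM (log2 fold change −0.78 ± 0.19, edgeR adjusted p = 0.0141). Replicate pair 1 gave −0.36, and pairs 2 and 3 gave −0.88 and −1.003. The call of TIMP2 was lost when replicate 1 of the MK5 siRNA group was left out (edgeR adjusted p = 0.0530) and likewise for its replicate 3 (edgeR adjusted p = 0.0597). Over all alternatives its adjusted p lay between 7.08e-11 and 0.0597.

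TIMP1 (ENSG00000102265), a secreted inhibitor of most metalloproteinases, did not pass with all libraries. It had 89.5, 68.2 and 72.2 CPM in the controls and 87.1, 107 and 104 CPM after MK5 siRNA. The replicate 1 libraries had nearly the same level, while replicates 2 and 3 were higher after MK5 siRNA. The log2 fold change was 0.38 ± 0.14, with a 95% interval of 0.04 to 0.72 before adjustment (edgeR adjusted p = 0.0686). In the pairs it was −0.04, 0.65 and 0.53. TIMP1 passed upward without control replicate 1 (0.51, edgeR adjusted p = 0.00361), without replicate 1 in both groups (0.60, edgeR adjusted p = 6.09e-08) and when libraries were scaled by their totals alone (0.49, edgeR adjusted p = 0.0279).

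TIMP3 (ENSG00000100234), the inhibitor that binds to the matrix and is known from the retinal pigment epithelium, is listed at 0 in all 6 libraries. The 83529813 counts of the controls allow a level of up to 0.0359 CPM and the 82862496 counts of the MK5 siRNA libraries one of up to 0.0362 CPM (3 counts per group, counting error only), if every read of the gene was counted. TIMP3 lies inside SYN3, a synapsin gene on the opposite strand, in the GENCODE release 29 annotation, where the exons of these genes share 0 bases and SYN3 had at most 1 count in any library. TIMP1 lies in the same way inside SYN1, which had at most 2 counts, and TIMP1 was counted. The annotation and overlap rule of the authors' counting are not known here, so whether the 0 is a level or a product of counting was not tested.

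PLAT (ENSG00000104368), tissue plasminogen activator, had the largest change of the 8 genes and fell by 9.96-fold. It was at 1783, 535 and 583 CPM in control replicates 1, 2 and 3 and at 91.9, 100.3 and 99.1 CPM in the MK5 siRNA replicates. Control replicate 1 was far above the other controls, and each control was far above each MK5 siRNA library. The means were 967 ± 707 and 97.1 ± 4.51 CPM (log2 fold change −3.32 ± 0.49, edgeR adjusted p = 0.00217). A smaller absolute change was found in 99.1% of the genes tested. The size rested in part on control replicate 1: it was −2.52 without that library (edgeR adjusted p = 2.13e-06), −2.48 without replicate 1 in both groups, and −4.27, −2.41 and −2.55 in replicate pairs 1, 2 and 3.

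PLAU (ENSG00000122861), urokinase, fell by 7.02-fold. The controls had 439.8, 223 and 213 CPM and the MK5 siRNA libraries 32.6, 46.1 and 46.1 CPM. The lowest control was above every MK5 siRNA library by several fold, and replicate 1 was the highest control and the lowest MK5 siRNA library. The mean fell from 292 ± 128 to 41.6 ± 7.79 CPM (log2 fold change −2.81 ± 0.33, edgeR adjusted p = 0.000916). The pairs gave −3.73, −2.26 and −2.20, and the fit without replicate 1 gave −2.24. In GENCODE release 29, 31.1% of the exonic bases of PLAU also lie in exons of C10orf55 on the opposite strand, which had 14 to 34 counts per library. Without strand information, reads of these bases cannot be assigned to one of the genes.

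PLAUR (ENSG00000011422), the urokinase receptor, did not pass. It stood at 236, 109 and 117 CPM in the controls and at 106, 129 and 129.6 CPM after MK5 siRNA, and the groups overlapped. The log2 fold change was −0.34 ± 0.30, with a 95% interval of −1.05 to 0.37 (edgeR adjusted p = 0.381). Its sign was set by 1 library. Without control replicate 1 it was 0.11 (edgeR adjusted p = 0.375), and without replicate 1 in both groups PLAUR rose by 0.20 (edgeR adjusted p = 0.00641). The pairs gave −1.15, 0.24 and 0.15.

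With replicates 2 and 3 alone, all 8 genes passed, 5 upward (MMP2, MMP14, MMP15, TIMP1 and PLAUR) and 3 downward (TIMP2, PLAU and PLAT). In that fit 75.8% of 13690 genes passed, since replicates 2 and 3 of a group hardly differed, with a common biological coefficient of variation of 4.63% against 21.2% over all libraries. All 3 replicate pairs moved the same way in 6 of the 8 genes (75.0%), and in 73.5% of all genes tested. The pairs follow the replicate numbers, and the labels state no pairing.

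**Figure D2:**
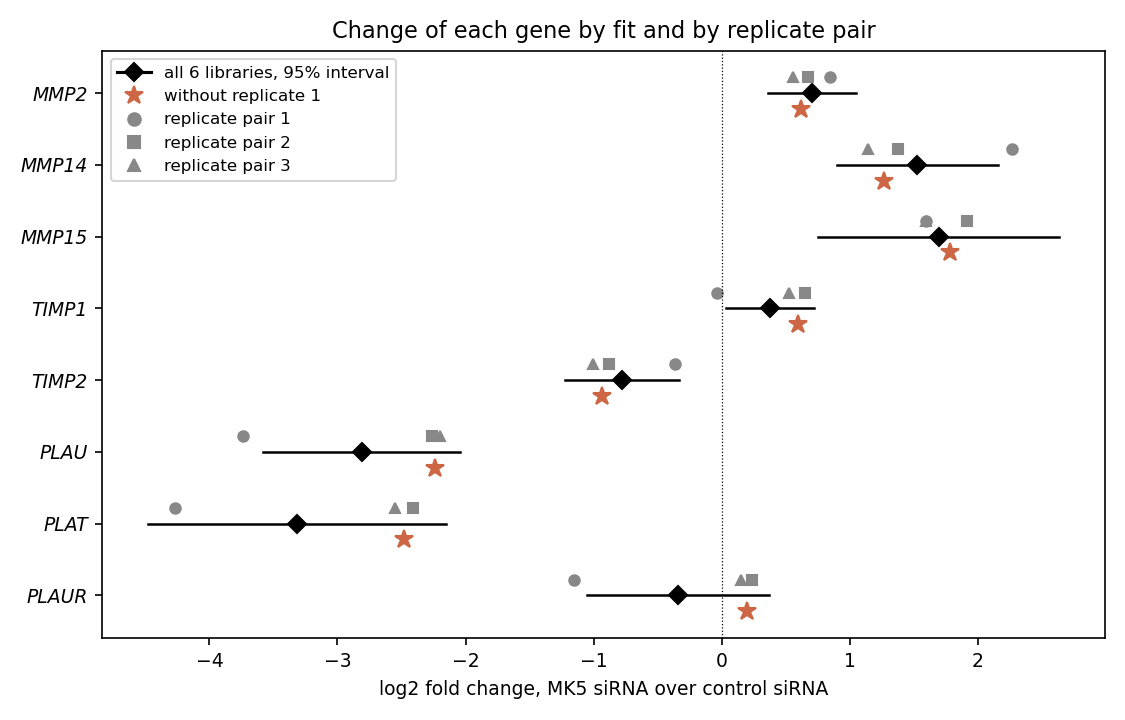
Log2 fold change of each gene, MK5 siRNA over control siRNA: the diamond and line are the edgeR estimate with its 95% interval over all 6 libraries, the star is the estimate without replicate 1 in both groups, and the grey symbols are the 3 replicate pairs. The intervals of PLAU and PLAT lie wholly below −2, and that of PLAUR spans 0. Pair 1 (circle) is the farthest from the other pairs in every gene but MMP15, though by little in MMP2.

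Ratios of counts within a library, which do not depend on scaling between libraries, set the proteases against their partners. The ratio of MMP14 to TIMP2 counts was 0.988, 1.21 and 1.31 in the controls and 6.13, 5.79 and 5.82 after MK5 siRNA, 5.08-fold higher (difference of mean log2 ratios 2.35). That of MMP2 to TIMP2 was 4.68, 2.70 and 2.72 against 10.8, 7.94 and 8.04 (1.44). Both ratios were higher in all MK5 siRNA libraries than in all controls.

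On the plasminogen side PLAU was lower relative to its receptor after MK5 siRNA. The ratio of PLAU to PLAUR counts was 1.87, 2.05 and 1.82 in the controls and 0.308, 0.358 and 0.355 in the MK5 siRNA libraries, 5.63-fold lower (difference of mean log2 ratios −2.49). The control libraries differed little in this ratio, with an SD of 0.0887 on the log2 scale, although control replicate 1 was high in both genes. Of 5 ratios computed, 3 are given here, and each of these reached p = 0.1 in the two-sided exact permutation test (adjusted p = 0.1 over the 5), the smallest that 3 against 3 libraries can give. Without replicate 1 in both groups the differences were 2.20 for MMP14 to TIMP2, 1.56 for MMP2 to TIMP2 and −2.44 for PLAU to PLAUR.

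**Figure D3:**
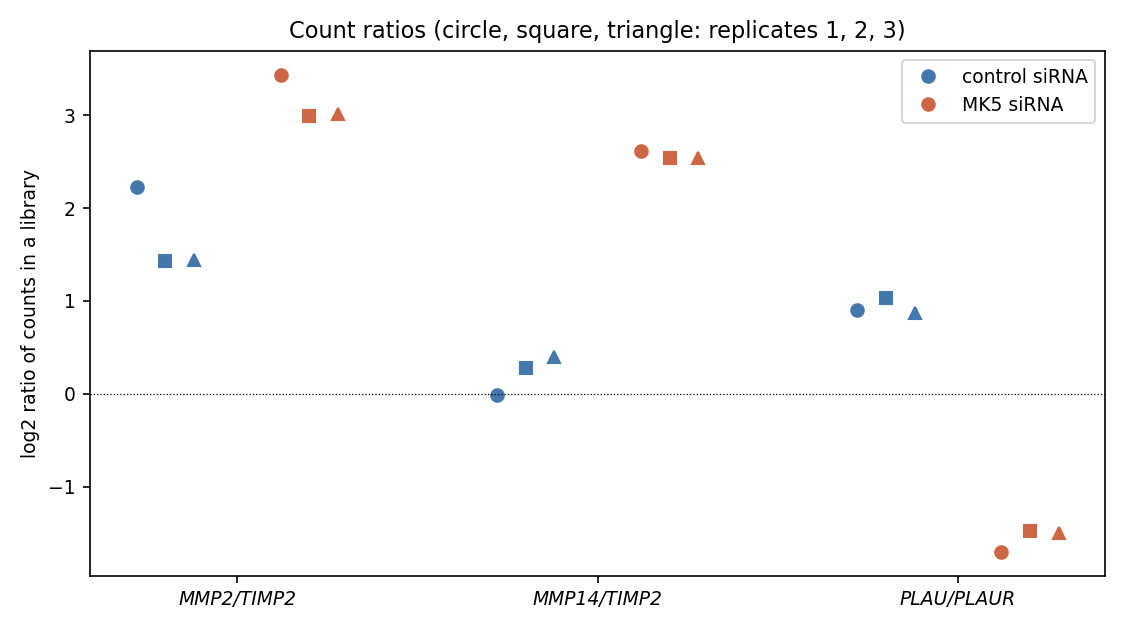
Log2 ratio of counts of the genes named on the horizontal axis within each library, for control siRNA (blue) and MK5 siRNA (orange), with 1 symbol per replicate. The ratios to TIMP2 are higher and the ratio of PLAU to PLAUR is lower in all 3 MK5 siRNA libraries than in all 3 controls.

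Per kilobase of annotated exon (GENCODE release 29), the order of the mean levels changed with the siRNA. The length used is that of all annotated exons of a gene joined, which can exceed that of a single transcript. The annotation used for counting is not known here, so the order between genes is approximate. In the controls it was MMP2 (479 ± 30.5 CPM per kb), MMP14 (199 ± 68.5), PLAT (146 ± 107), TIMP2 (132 ± 31.2), PLAU (99.0 ± 43.4), TIMP1 (49.7 ± 7.34), PLAUR (34.5 ± 15.9) and MMP15 (5.43 ± 2.60). The libraries of MMP2 did not overlap those of MMP14, nor those of PLAU those of TIMP1, nor those of PLAUR those of MMP15, and all other neighbours overlapped. After MK5 siRNA it was MMP2 (781 ± 129), MMP14 (573 ± 37.3), TIMP2 (76.8 ± 5.64), TIMP1 (64.7 ± 7.13), PLAUR (27.2 ± 3.02), MMP15 (17.6 ± 7.07), PLAT (14.7 ± 0.681) and PLAU (14.1 ± 2.64). There the first 5 did not overlap with their neighbours above, and PLAUR and MMP15, MMP15 and PLAT, and PLAT and PLAU did. By these means PLAT went from the third place to the seventh, but its control libraries ranged from 80.8 to 269 CPM per kb. In control replicate 1 PLAT was above MMP14 and TIMP2, and in control replicates 2 and 3 it was below both. After MK5 siRNA, MMP15 was above PLAT and PLAU in replicate 1 and below both in replicates 2 and 3. The order by means thus rested in part on replicate 1.

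The lists of other genes of these pathways were chosen with earlier results of these data known. Of 19 other metalloproteinase genes listed, 18 had a row and 6 passed the filter. MMP16 rose, MMP19 fell and 4 did not pass, with a median of −0.69. Without replicate 1 in both groups 1 rose and 4 fell. Among those that fell there was MMP11, at 26.5 ± 9.91 CPM in controls, named after its values were seen. MMP11 gave −0.66 ± 0.38 with all libraries (edgeR adjusted p = 0.194) and −1.30 without replicate 1 in both groups (edgeR adjusted p = 1.1e-09). Its pairs gave 0.67, −1.08 and −1.49. MMP16, a membrane-anchored relative of MMP14, rose from 30.8 ± 1.30 to 88.0 ± 3.65 CPM (1.52 ± 0.10, edgeR adjusted p = 0.000209). MMP19, a secreted enzyme, changed by −0.85 ± 0.29 (edgeR adjusted p = 0.0477) and did not pass in 9 of 15 alternatives, with an adjusted p of up to 0.132. All 3 metalloproteinases with a transmembrane anchor and at least 20 CPM in the controls rose (MMP14, MMP15 and MMP16), a grouping made after the values were seen; the fourth of that kind, MMP24, at 2.47 CPM, gave −0.46 ± 0.58 (edgeR adjusted p = 0.547) and passed downward without control replicate 1 (−0.91, edgeR adjusted p = 0.00843) and without replicate 1 in both groups (−0.76, edgeR adjusted p = 0.000805). The lipid-anchored MMP17 and MMP25 gave −0.72 ± 0.34 and −0.72 ± 0.40 (edgeR adjusted p = 0.12 and 0.18). MMP17 passed downward with the replicate number as a block (−0.70, edgeR adjusted p = 0.0216) and without replicate 1 in both groups (−0.64, edgeR adjusted p = 0.00029). Of the 18, 11 had at most 10 counts in every library, among them MMP3, MMP9 and MMP13.

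Among 6 other inhibitors and modulators of metalloproteinases, 5 were tested, TIMP4 fell and SPOCK2 rose, with a median of −0.43. SPOCK1, named after its values were seen, was the most abundant of these in the controls, at 293 ± 117 CPM. SPOCK1 did not pass with all libraries (−0.43 ± 0.30, edgeR adjusted p = 0.277) and passed downward without replicate 1 in both groups (−0.70, edgeR adjusted p = 7.3e-10). TIMP4 fell from 1.81 ± 0.742 to 0.559 ± 0.0634 CPM (−1.69 ± 0.39, edgeR adjusted p = 0.0119) but not with MK5 siRNA replicate 2 left out (edgeR adjusted p = 0.0559). SPOCK2, a proteoglycan, stayed below 1 CPM (1.72 ± 0.48, edgeR adjusted p = 0.0231) and is named after its values were seen. It did not pass without control replicate 2 or any 1 of the MK5 siRNA libraries (edgeR adjusted p from 0.0526 to 0.0835). RECK, a membrane-anchored inhibitor of MMP14 and MMP2, gave −0.60 ± 0.33 (edgeR adjusted p = 0.172). It passed downward with the replicate number as a block (−0.54, edgeR adjusted p = 0.0402) and without replicate 1 in both groups (−0.39, edgeR adjusted p = 0.000863).

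Of 21 partners of the plasminogen system, 16 were tested, 2 rose and 6 fell, with a median of −0.34. F3, tissue factor, which starts blood clotting, was at 761 ± 87.0 CPM in controls and fell to 221 ± 9.40 CPM (−1.78 ± 0.12, edgeR adjusted p = 0.000209). SERPINE2, a secreted inhibitor of serine proteases, rose from 58.2 ± 19.99 to 120.3 ± 5.57 CPM (1.05 ± 0.23, edgeR adjusted p = 0.00984). The surface receptors of plasminogen ENO1 (−0.88 ± 0.24, edgeR adjusted p = 0.0228) and S100A10 (−0.76 ± 0.20, edgeR adjusted p = 0.0199) fell, but neither passed when any 1 of the MK5 siRNA libraries was left out (edgeR adjusted p from 0.067 to 0.0764). Without replicate 1 in both groups they gave −0.53 and −0.49 and passed. Plasminogen itself (PLG) had 1 count in all libraries together.

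Of the genes listed for the activation and docking of metalloproteinases, 15 had a row and 13 were tested. Of these 7 rose and 3 fell, with a median of 0.53. ITGB1, the beta chain of collagen- and laminin-binding integrins, rose from 1852 ± 104 to 3495 ± 205 CPM (0.92 ± 0.11, edgeR adjusted p = 0.000938). The proprotein convertase PCSK7 rose by 0.88 ± 0.18 (edgeR adjusted p = 0.00717), and ADI1, an enzyme of methionine salvage that binds the cytoplasmic tail of MMP14, rose by 0.67 ± 0.11 (edgeR adjusted p = 0.00354). FURIN, the convertase that cuts the MMP14 precursor, rose from 190.4 ± 16.2 to 274 ± 42.7 CPM (0.53 ± 0.14, edgeR adjusted p = 0.0201); it is named after its values were seen. FURIN did not pass without control replicate 2 or without control replicate 3 (edgeR adjusted p = 0.0819 and 0.0677). CAV1, the caveolar coat protein, fell from 820.3 ± 49.1 to 279 ± 17.6 CPM (−1.55 ± 0.11, edgeR adjusted p = 0.000211).

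**Figure D4:**
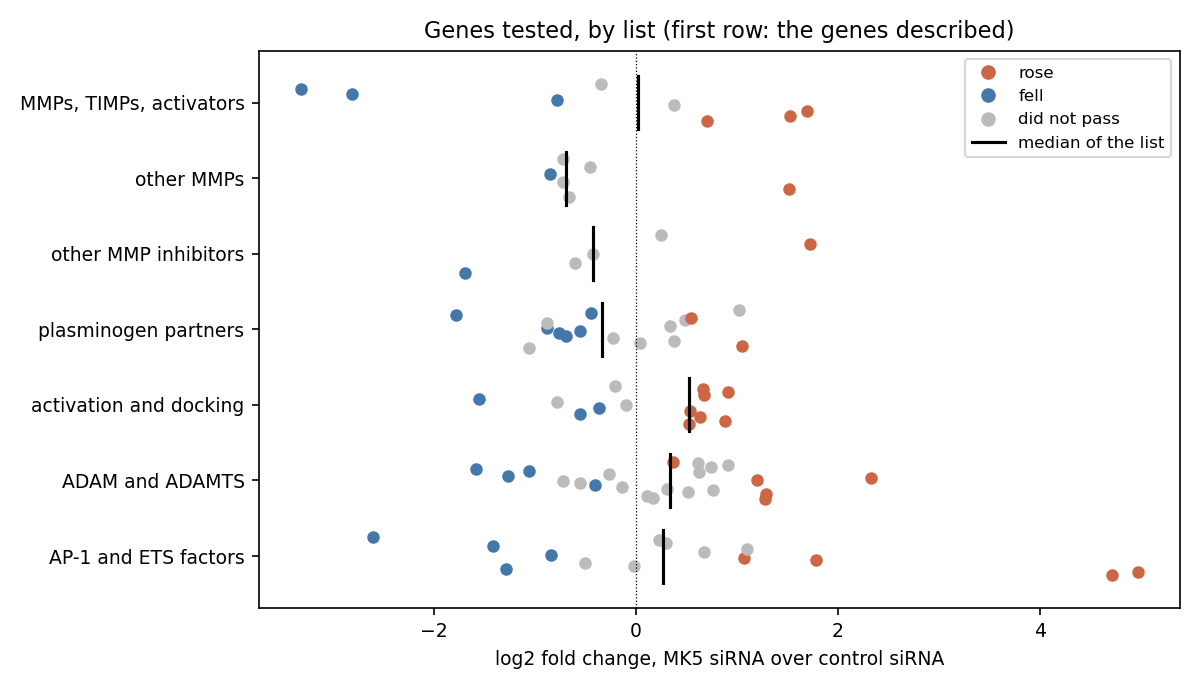
Log2 fold change, MK5 siRNA over control siRNA, of every gene that passed the filter on low counts, by list; orange genes rose, blue genes fell and grey genes did not pass (edgeR adjusted p of 0.05), and the black line is the list's median. The median is 0.53 for the activation and docking list and −0.69 for the other MMPs, and the genes described above lie on both sides of 0 with a median of 0.02.

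AP-1 and ETS proteins are known to act on the promoters of PLAU and of several metalloproteinases. Of 15 such factor genes, 14 were tested, 4 rose and 4 fell, with a median of 0.27. FOSB (4.97 ± 0.54), FOS (4.71 ± 1.05) and JUNB (1.78 ± 0.26) rose, and ELK3, an ETS factor, fell from 187 ± 52.4 to 30.6 ± 2.83 CPM (−2.61 ± 0.21), with edgeR adjusted p from 0.000318 to 0.0103. In the controls FOSB averaged only 1.37 CPM, FOS 0.461 CPM and JUNB 14.1 CPM. Of other genes of this list, named after their values were seen, JUND rose (1.07 ± 0.24, edgeR adjusted p = 0.0112). FOSL1 fell from 449 ± 177 to 184 ± 5.58 CPM (−1.29 ± 0.26, edgeR adjusted p = 0.00681). ETS1 fell from 230 ± 9.34 to 129 ± 24.2 CPM (−0.84 ± 0.15, edgeR adjusted p = 0.00418). JUN, at 247 CPM in controls, and FOSL2, at 381 CPM, did not pass (−0.50 ± 0.26 and −0.02 ± 0.16, edgeR adjusted p = 0.153 and 0.932). Both passed downward without replicate 1 in both groups (−0.76 and −0.25). FOS rested on MK5 siRNA replicate 1 for its size, with 2.88 without that library, and gave 3.14 without replicate 1 in both groups. FOSB gave 4.39 without MK5 siRNA replicate 1 and 4.14 without replicate 1 in both groups. The part of these factors in the changes of PLAU, PLAT or the metalloproteinases was not tested.

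The genes most like PLAU across the 6 libraries, among 10481 genes of at least 5 CPM, were PARP12, CDCA7L and GOLIM4, with Pearson correlations of log2(CPM + 0.5) of 0.9997, 0.9997 and 0.9994. Their log2 fold changes were −1.64, −2.29 and −1.16. The correlation exceeded 0.99 in 231 genes. The 6 points are 3 libraries in each of 2 groups and share the difference between the groups, so a high value says mainly that a gene fell after MK5 siRNA and was highest in control replicate 1. No such search was made for MMP1, which was below the filter.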

How the data were processed

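Gene counts were analysed for 6 RNA-seq libraries (TruSeq V2 kit, per the labels' protocols). Per the submitters' processing notes, the tools were HTSeq 0.9.1, TopHat2 2.1.1, Trimmomatic 0.36 and FastQC, with GRCh37; annotation, settings and strand are not given here. The deposited values are whole-number counts; the table is named for CPM, and the test for counts was used. Genes passing filterByExpr (least count 10, least total 15) were tested with edgeR 4.0.16 in R 4.3.3 (TMM scaling, quasi-likelihood test, two-sided, Benjamini-Hochberg over 13431 genes), without a block. The procedure was also run on simulated data with less spread between libraries, fewer changed genes and no library that stood apart. That run therefore does not show how the test performs on data like these. Standard errors are the size of the change over the square root of F. limma 3.58.1 (voom) and DESeq2 1.42.0 were alternatives, as were other scalings and filters, the block and left-out libraries. Same-numbered libraries deviated together (correlations of deviations from group means 0.258, 0.206 and 0.248). The numbers were therefore taken to pair them, from the data and not the labels. Control replicate 2 with MK5 siRNA replicate 3 gave 0.151, and control replicate 3 with MK5 siRNA replicate 2 gave 0.182. These lie close to the values of pairs 2 and 3, so which of these libraries belong together is poorly settled. Exonic lengths and overlaps came from GENCODE release 29 (GRCh38), and ratios were tested with scipy 1.17.1. Genes and lists were chosen with earlier results of these data known. Named are all members, RECK and MAPKAPK5 (1 further gene of the rule is not reported here), up to 4 passing genes of at least 1 CPM with the largest change per list, and the 3 genes most like PLAU; ADAMs are in the closing section.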

Additional observations from a re-analysis of the deposited data

How the results depend on the processing

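The 6 changes among the 8 tested genes kept their direction in all 15 alternatives, and MMP2, MMP14, MMP15, PLAU and PLAT also stayed past the threshold in each. Over these alternatives the log2 fold change ranged from 0.57 to 0.81 in MMP2, 1.27 to 1.68 in MMP14, 1.32 to 2.16 in MMP15, −3.02 to −2.24 in PLAU and −3.64 to −2.48 in PLAT. PLAUR changed sign without control replicate 1 (0.11) and without replicate 1 in both groups (0.20), and lay as low as −0.56 with control replicate 2 left out. ADAMTS1 also changed sign in limma-voom (0.052), without control replicate 1 (0.97) and without replicate 1 in both groups (0.87), and lay at −1.01 without control replicate 3. Without replicate 1 in both groups 5 of the members rose, and 5195 of all genes rose and 5177 fell, against 3020 and 3186; the spread between the libraries left was smaller. Leaving out single libraries gave between 2064 and 4455 rises and between 2103 and 4419 falls. With the replicate block, 3154 rose and 3205 fell. Among the genes named RECK (−0.54), MMP17 (−0.70), KDR (−1.22), PDGFRB (−0.86) and JUN (−0.56) came to pass and ADAMTS1 changed sign (0.087). Library totals alone shifted the median of all genes by 0.10 and TIMP1 to 0.49. Of 609 values of named genes under the alternatives, 567 kept direction and side of the threshold, 27 no longer passed, 9 came to pass and 6 reversed. Of the cell type markers only CSF1R, VWF and TEK are among these values. MMP11, SPOCK1, JUN, JUND, FOSL1, FOSL2 and ETS1 are not among them. The ratios kept their direction in every alternative run for them. Ratios with MMP1 or TIMP3 could not be computed, because of counts of 0. With 3 libraries per group, small changes such as those of TIMP1 and PLAUR are poorly resolved.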

Other observations

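The related ADAM and ADAMTS proteases, which shed surface proteins or cut proteoglycans and procollagens, changed in both directions. Of 30 listed, 22 were tested, 5 rose and 4 fell, with a median log2 fold change of 0.34. ADAMTS5, an aggrecan-cutting enzyme, rose from 4.90 ± 2.17 to 24.6 ± 4.56 CPM (2.33 ± 0.32, edgeR adjusted p = 0.0017). ADAM12, a membrane-anchored protease, rose to 348 ± 37.2 CPM from 142 ± 29.1 CPM (1.29 ± 0.17, edgeR adjusted p = 0.00139). ADAM8 rose by 1.27 ± 0.22 from 3.37 ± 0.479 CPM (edgeR adjusted p = 0.00405). ADAMTS12 fell from 526 ± 100.4 to 175 ± 37.5 CPM (−1.59 ± 0.20, edgeR adjusted p = 0.00128). ADAMTS1 was at 211 ± 238 CPM in the controls and gave −0.56 ± 0.73 (edgeR adjusted p = 0.559), and 0.87 without replicate 1 in both groups, where it passed (edgeR adjusted p = 2.19e-09); it is named after its values were seen.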
